A study of Drosophila melanogaster with 3 samples.

Results

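The 36 genes described here encode proteins that neurons and their targets use to signal: the machinery of synaptic vesicle release, voltage-gated and calcium-gated channels, enzymes and transporters of neurotransmitters, muscle glutamate receptors, and adhesion and cytoskeletal proteins of axons and synapses. They were chosen by name from 13945 protein-coding genes of the fly, not by any measured value, but with earlier results of these data known. All 36 symbols matched the annotation. The measurement is chromatin immunoprecipitation with sequencing of E(spl)mβ, a basic helix-loop-helix repressor of Drosophila melanogaster. The samples were 3 biological replicates of 1 group: whole embryos, male and female pooled, collected at 0 to 24 h, from a single transgenic line (E(spl)m-beta-GFP) that stably expresses the protein with green fluorescent protein fused to its C terminus. An antibody against the tag was used, and no untagged or other genotype entered the comparison. The deposited peak lists are on the dm6 build. In whole embryos a peak could come from any cell type, and fewer bound cells and weaker binding per cell cannot be told apart.

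Notch signalling in the early neuroectoderm switches on the E(spl) genes, whose products repress proneural genes and so hold cells back from the neural fate. The genes considered here lie at the far end of that fate. Many of them are best known from differentiated neurons, and the GluRII genes from the muscle that receives the motor nerve, while some, such as Ddc, CadN and Fas2, also act elsewhere or earlier. Whether any of them is active in these embryos was not measured, and it is not known from these files which cells carried the tagged protein.

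The authors deposited a list of 8549 peaks selected by the irreproducible discovery rate (IDR), a list of 30000 peaks from the pooled replicates and lists of 30000 peaks for each replicate. Every IDR peak was in the pooled list, where the 8549 IDR peaks were those with the highest signal. Signal is the authors' own enrichment value for a peak; it ranks peaks within a list, rank 1 being the highest, and is not comparable between lists. Read depth is unknown. A summit was counted at a start when it lay within 1 kb of an annotated transcription start site (TSS) of the gene, and in the gene body when it lay inside the gene but farther than 1 kb from all of its TSSs.

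Among the 36 genes, as among protein-coding genes at large, most had no IDR summit at a start. An IDR summit lay within 1 kb of a TSS in 8 of the 36 genes (22.2%, exact 95% binomial interval 10.1 to 39.2%), against 32.1% of all protein-coding genes, a share within that interval. The 8 were Nrx-1, ple, Syx1A, slo, Rop, Syn, Ddc and Shab. A further 4 genes, ChAT, Sh, CadN and Fas2, had IDR summits in the gene body only, and Syx1A had 1 there as well. The remaining 24 had neither, among them nSyb, Syt1, brp, para and VGlut. The pooled summits nearest to these named genes lay past the 1 kb limit but within 2000 bp of a TSS. The distances were 1039 bp for brp, 1418 bp for Syt1, 1636 bp for VGlut, 1816 bp for nSyb and 1912 bp for para. Intervals cover the counting of genes only, and no test of the list was run, since neighbouring genes can share a peak.

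The sequence under the 7 strongest IDR summits outside untranslated regions is shown because these are the places where the protein was found at these genes. Each window is 101 bases of the dm6 plus strand centred on the summit, read from the RefSeq copy of the Release 6 assembly. Capitals mark any E-box of the form CANNTG and any GATAA, on either strand. In order of signal they were the following.
ChAT intron, chr3R:18719903-18720003: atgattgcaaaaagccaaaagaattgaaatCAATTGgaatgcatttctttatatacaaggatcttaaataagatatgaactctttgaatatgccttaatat
Sh intron, chrX:18004330-18004430: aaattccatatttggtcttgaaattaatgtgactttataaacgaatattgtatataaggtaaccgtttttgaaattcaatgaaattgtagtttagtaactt
CadN intron, chr2L:17747262-17747362: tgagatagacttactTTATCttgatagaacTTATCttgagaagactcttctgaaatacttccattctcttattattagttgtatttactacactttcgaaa
ple upstream, chr3L:6719773-6719873: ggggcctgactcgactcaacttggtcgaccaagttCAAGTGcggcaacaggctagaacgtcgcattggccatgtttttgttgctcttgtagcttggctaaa
Syx1A upstream, chr3R:24106409-24106509: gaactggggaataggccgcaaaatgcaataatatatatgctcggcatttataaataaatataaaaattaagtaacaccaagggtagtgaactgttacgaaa
Fas2 intron, chrX:4202541-4202641: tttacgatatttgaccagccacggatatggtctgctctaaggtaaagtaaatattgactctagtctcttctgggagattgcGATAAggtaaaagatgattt
slo upstream, chr3R:24667645-24667745: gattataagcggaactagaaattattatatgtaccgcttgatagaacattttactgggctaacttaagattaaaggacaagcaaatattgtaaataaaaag

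CACGTG, an E-box known to be bound by proteins of the E(spl) family, was in none of these windows. Over all 17 IDR summits at the 36 genes, with 100 bases on each side and both strands searched, 0 held CACGTG, which 4.07% of all 8549 IDR windows held, and 0 held its longer form GGCACGTG (1.3% of all). The Hairy-type site CACGCG was in 1 of 17, 70 to 75 bases to the right of the ple summit (7.23% of all). The N-box form CACNAG was in 3 of 17, at Nrx-1, ple and Shab (19% of all), and any CANNTG, which includes CACGTG, was in 6 of 17 (59.3% of all). GAGAG, the core of GAGA factor sites, was in 2 of 17, at Ddc and a summit of Sh (23% of all). GATAA was in 5 of 17 (40.3% of all); it was added to the search after the printed sequences had been seen. The CadN window holds it at both capitalised places. With 17 windows, a sequence of low frequency can be missing by counting alone, and a match or its absence says only what letters are in the window.

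Among the genes of vesicle release, 3 of 11 had an IDR summit at a start, against 32.1% of all protein-coding genes. Syx1A encodes syntaxin, the plasma membrane SNARE on which vesicles dock (FBgn0013343, 3R 24101600 to 24105763, minus strand). Its IDR summit at the start lay 696 bp upstream of the gene. Its signal was 552 and its rank 4112 in the IDR list. The nearest replicate summits had signals of 312.6, 109.8 and 160.1 and ranks 3243, 5299 and 4751 in replicates 1, 2 and 3, so that all 3 placed it among their 8549 strongest. This summit lies in an intron of the neighbouring gene eIF4EHP and has a TSS of CG10694 within 1 kb too. In the pooled list 5 summits lay at this start. The next in signal (280.7, rank 8730), just outside the IDR list, lay 4 bp from the TSS, with replicate ranks of 15143, 7007 and 7981. Another IDR summit lay 3061 bp downstream of the Syx1A TSS, in its 3′ untranslated region and again within the eIF4EHP intron, with a signal of 377.4. Its replicate ranks were 5436, 4797 and 11282.

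Rop encodes the Munc18 homologue that binds syntaxin (FBgn0004574, 3L 4136359 to 4138996, minus strand). Its summit, of signal 407.2 and rank 5862, lay 54 bp upstream of its TSS but only 26 bp from that of the gene Ras64B, which lies next to it. Replicates 1 and 2 had a summit there at ranks 5035 and 6007, and replicate 3 had none within 100 bp. Counting only the gene with the nearest TSS removed Rop from the 8. Syn encodes synapsin, which tethers vesicles in reserve (FBgn0004575, 3R 10190689 to 10222442, plus strand). Its summit lay 498 bp upstream, with a signal of 385.2 and replicate ranks of 5290, 11151 and 6614, and CG12814 also has a TSS within 1 kb.

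The other 8 genes of vesicle release had no IDR summit at the start or in the body. For cpx, which encodes complexin, the clamp of the SNARE complex, the pooled list held 4 weak summits at its 8 TSSs. The best had a signal of 115.3 and rank 19185, and the best ranks in replicates 1, 2 and 3 were 14677, 18174 and 19399. For brp, which encodes the scaffold Bruchpilot of the active zone, only replicate 3 had a summit at a start (rank 16655), and for Syt1, which encodes the calcium sensor synaptotagmin, only replicate 1 did (rank 18912), while replicate 3 had a summit in the gene body. In replicates 1 and 2 the nearest summits to a brp TSS were 1004 and 1066 bp away, just past the limit. No list, pooled or replicate, had a summit within 1 kb of a TSS of nSyb, the neuronal synaptobrevin, Rab3, a vesicle GTPase, Rim, an active zone scaffold, unc-13, the priming factor, or Snap25, the third SNARE.

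**Figure D1:**
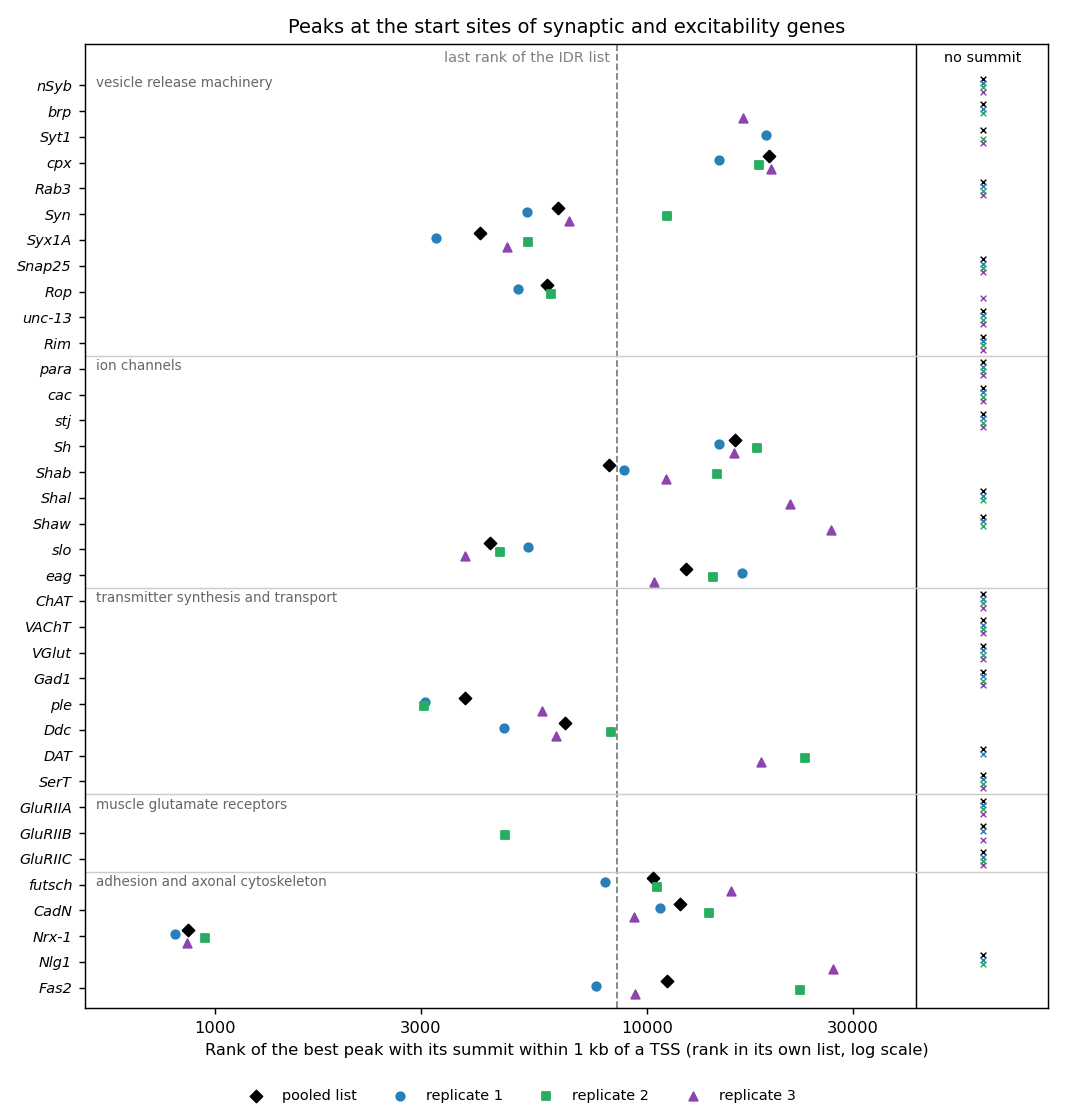
Rank of the best peak with its summit within 1 kb of a TSS, for each of the 36 genes (rows, grouped by role) in the pooled list and in each replicate list (log axis; each symbol is the rank in its own list). Crosses at the right mark lists with no such summit, and the dashed line is rank 8549, the last of the IDR list; Nrx-1 stands alone with ranks of 809 to 950, and 15 genes have crosses for every list.

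The plot of ranks shows each gene in every list. In the pooled list 14 of 36 genes had a summit at a start (38.9%), against 47.2% of all genes, and 13 had one in all 3 replicate lists (36.1%), against 41.6% of all. The 14 were the 8 above with cpx, Sh, eag, futsch, CadN and Fas2; Rop, at which replicate 3 lists none, is the one that is not among the 13. No list held a summit at the start of 15 of 36 genes (41.7%), against 40.2% of all genes. Single replicates gave 15, 16 and 18 of 36 in replicates 1, 2 and 3, against 49.6%, 51.9% and 50.2% of all genes. The pooled list thus added 6 genes to the 8, and the replicate lists added 7 more that the pooled list lacks: brp, Syt1, Shal, Shaw, DAT, GluRIIB and Nlg1. The members' shares in these lists lay near or below the background.

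Of the 9 channel genes, 2 had an IDR summit at a start, against 32.1% of all protein-coding genes. The gene slo encodes the calcium-gated potassium channel of the BK type (FBgn0003429, 3R 24662491 to 24711595, plus strand). Its summit lay 451 bp upstream of an internal TSS, in an intron of the longer transcripts, with a signal of 528.7 and rank 4340. Replicate ranks were 5305, 4583 and 3795, all within the top 8549. Shab encodes a delayed rectifier potassium channel (FBgn0262593, 3L 2895017 to 2959579, plus strand). Its summit 121 bp upstream of the TSS had a signal of 298.5 and rank 8192, close to the end of the IDR list, and replicate ranks of 8851, 14492 and 11076, so that no replicate placed it among its 8549 strongest.

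Sh encodes the Shaker potassium channel, which carries fast transient current, and spans 138.9 kb on the X chromosome with 8 TSSs. It had no IDR summit within 1 kb of a TSS and 4 in its introns, of signals 723.3, 395.6, 304 and 294.3. The strongest, 58.9 kb from the 5′ end, was found in replicates 1, 2 and 3 at ranks 2719, 4411 and 2705. The second was found within 100 bp in replicate 3 only (rank 5978), and the third in replicates 2 and 3 (ranks 11336 and 5411). The fourth lay at ranks 10085, 11517 and 6706. Of the 4 summits, then, 1 lay among the strongest of all 3 replicates and the others were weak or missing in 1 or more.

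The other channel genes had no IDR summit. For eag, a potassium channel gene, a summit 164 bp upstream of the TSS ranked 12334 in the pooled list and 16577, 14240 and 10366 in the replicates. Shal and Shaw, further potassium channel genes, had start-site summits in replicate 3 only, at ranks 21407 and 26641. Shal also had 2 pooled intron summits, of signals 206.6 and 239.9. The sodium channel gene para, the presynaptic calcium channel gene cac and stj, which encodes its α2δ subunit, had no summit at a start in any list, and para had 2 weak pooled summits (110 and 61.8) in its 3′ untranslated region.

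Of the 8 genes of transmitter synthesis and transport, 2 had an IDR summit at a start, against 32.1% of all protein-coding genes. Both act in making dopamine. The gene ple encodes tyrosine hydroxylase, the first enzyme of dopamine synthesis (FBgn0005626, 3L 6713356 to 6719525, minus strand). Its summit 298 bp upstream of the TSS had a signal of 587.9, rank 3801 and replicate ranks of 3068, 3041 and 5729. Ddc encodes dopa decarboxylase, the next enzyme (FBgn0000422, 2L 19116483 to 19120306, minus strand). Its summit 488 bp upstream had a signal of 372.6 and rank 6456, with replicate ranks of 4661, 8246 and 16672. A pooled summit 754 bp upstream of Ddc, of signal 256.8, fell outside the IDR list, and there replicate 3 had the higher signal of the pair (124.8 against 43.9). Both enzymes also serve the epidermis, where dopamine is used to harden and colour the cuticle.

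ChAT encodes choline acetyltransferase, which makes acetylcholine, the main excitatory transmitter of the fly brain (FBgn0000303, 3R 18705501 to 18732344, plus strand). It had no summit at its TSS in any list, but an intron summit 14452 bp downstream with a signal of 1596.5 and rank 884, the second highest of the 36 genes. Replicate signals there were 798.1, 344.7 and 446.6, at ranks 704, 939 and 1215. The position is also an exon of the noncoding gene lncRNA:CR46265, and the nearest protein-coding TSS, 2637 bp away, is that of CG34283. VAChT, the vesicular acetylcholine transporter gene, shares its TSS with ChAT and ends at 18718916, before this summit, and so had no IDR summit. A weak pooled summit (125.4) 2777 bp downstream of the shared TSS lies in an intron of both genes, and no replicate had a summit within 100 bp of it.

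Gad1, which makes GABA, had no summit at a start in any list and 5 pooled intron summits outside the IDR list, of signals 65.8 to 253.5. The strongest of them ranked 9634 in the pooled list and was the one found in all 3 replicates. VGlut, the vesicular glutamate transporter gene, and SerT, the serotonin transporter gene, had no summit at a start or in the body in the pooled list or any replicate list. DAT, the dopamine transporter gene, had start-site summits in replicates 2 and 3 only, at ranks 23274 and 18365.

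The 3 muscle glutamate receptor genes GluRIIA, GluRIIB and GluRIIC, whose products form the receptors of the neuromuscular junction, had no IDR or pooled summit at a start or in the body. All 3 are shorter than 5 kb. Of all genes under 5 kb, 27% had an IDR summit at a start and 1.18% in the body. For GluRIIB replicate 2 listed a summit at rank 4697, with a signal of 120.7, and the other replicates listed none. The nearest IDR summit to GluRIIA was 8418 bp upstream, with a signal of 2260.5, and lies 432 bp from the TSS of the gene Oscillin.

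Of the 5 adhesion and cytoskeletal genes, Nrx-1 had the highest signal of the 36. It encodes neurexin, a presynaptic adhesion protein (FBgn0038975, 3R 22468512 to 22486969, plus strand). The summit, at 3R 22469331, lay 147 bp upstream of an internal TSS and within the 5′ untranslated region of a longer transcript, with a signal of 1622.9 and rank 865. Replicate signals were 742.5, 342 and 557.9, at ranks 809, 950 and 862. No other protein-coding gene had a TSS within 1 kb. Its postsynaptic partner gene Nlg1 (neuroligin) lacked IDR and pooled summits, and was listed at a start in replicate 3 only, at rank 26915.

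CadN encodes N-cadherin and Fas2 encodes fasciclin 2, both homophilic adhesion proteins of axons. Both are long genes with many pooled summits in the body, where the shorter Nrx-1 (18.5 kb) held none. Per 100 kb of body, CadN held 14.8 pooled summits and Fas2 22.2, against 17.2 over all genes longer than 50 kb. For IDR summits the densities were 1.56 and 1.38, against 3.61. CadN (131.3 kb) had 2 IDR intron summits, of signals 616.4 and 300.6, and 19 pooled summits in its body, between 2.1 and 42.5 kb from its 5′ end. Fas2 (73.2 kb) had 1 IDR intron summit, 3502 bp downstream of its TSS with a signal of 544.1, and 16 pooled ones between 1.9 and 39.8 kb. The strong summit of CadN had replicate ranks of 3152, 5593 and 4061, and that of Fas2 3922, 3751 and 6090. The weak one of CadN lay at 6633 and 10846 in replicates 1 and 3 and was not found in replicate 2. At their starts both genes had pooled summits outside the IDR list, with best ranks of 11917 for CadN and 11130 for Fas2. The start of futsch, which encodes a microtubule-associated protein of axons, had a summit 35 bp downstream of the TSS that ranked 10339 in the pooled list and 7985, 10545 and 23251 in the replicates.

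**Figure D2:**
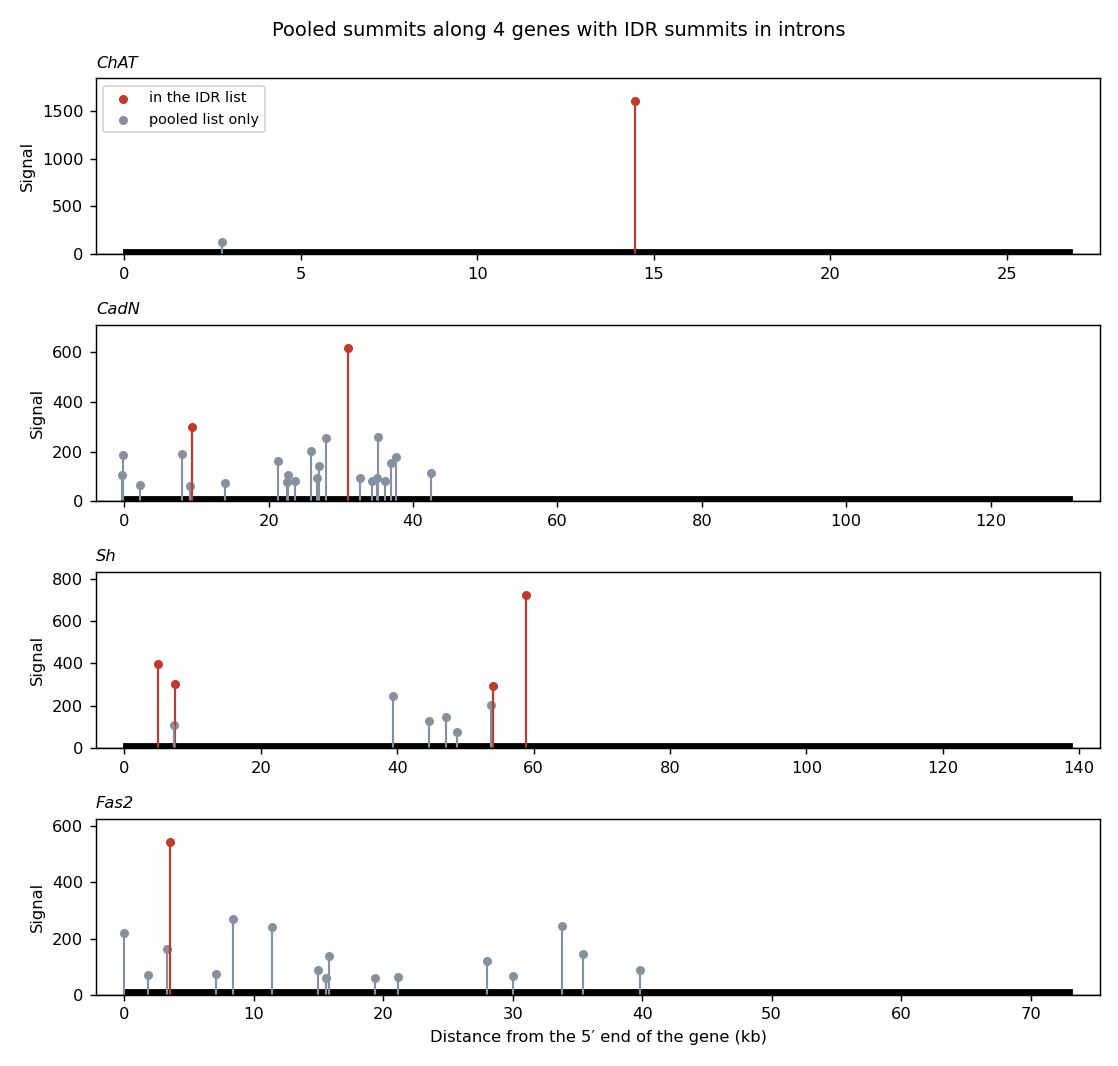
Signal of pooled summits (vertical lines) along ChAT, CadN, Sh and Fas2, against distance from the 5′ end of the gene in kb; the black bar is the gene, red marks summits in the IDR list and grey those in the pooled list only. ChAT has a single tall summit of 1596.5, whereas CadN (131.3 kb) and Fas2 (73.2 kb) have 19 and 16 summits in their bodies, most of them outside the IDR list. No summit of CadN lies beyond 42.5 kb from the 5′ end, of Sh beyond 58.9 kb or of Fas2 beyond 39.8 kb.

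Among the members longer than 50 kb, most body summits lay towards the 5′ end of the gene, but they came from a few genes. In the 8 members longer than 50 kb, 7 of 7 IDR body summits and 43 of 46 pooled ones (93.5%) lay nearer to the 5′ end of the gene than to its 3′ end. Over all 307 protein-coding genes longer than 50 kb the shares were 58.6% of 1047 and 58% of 4996. The values for the members come from 3 genes in the IDR list and from 5 in the pooled list, and summits in a gene are not independent. Of the 46 pooled summits, 19 were in CadN and 16 in Fas2. The 3 pooled summits nearer to the 3′ end were the 2 of para and 1 of Fas2.

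The members are long genes, and the share of genes with a summit differed with length. Their median length was 21.42 kb, against 2.17 kb over all protein-coding genes, and 18 of 36 had more than 1 TSS. Of all genes, 27% of those under 5 kb had an IDR summit at a start, 45.8% of those of 5 to 20 kb, 53% of those of 20 to 50 kb and 47.9% of those over 50 kb. The members in these classes numbered 3 of 6, 2 of 12, 2 of 10 and 1 of 8. The share for members was thus above that of all genes in the shortest class and below it in the 3 longer ones, where the upper ends of the intervals were 48.4, 55.6 and 52.7%. The genes of under 5 kb with a summit were Syx1A, Rop and Ddc. In the pooled list the members numbered 3 of 6, 2 of 12, 4 of 10 and 5 of 8, against 40.5%, 64.6%, 74.1% and 71.3% of all genes. Among genes with 1 TSS, 5 of 18 members had an IDR summit at a start (25.1% of all such genes), and among those with more, 3 of 18 (51.4%).

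**Figure D3:**
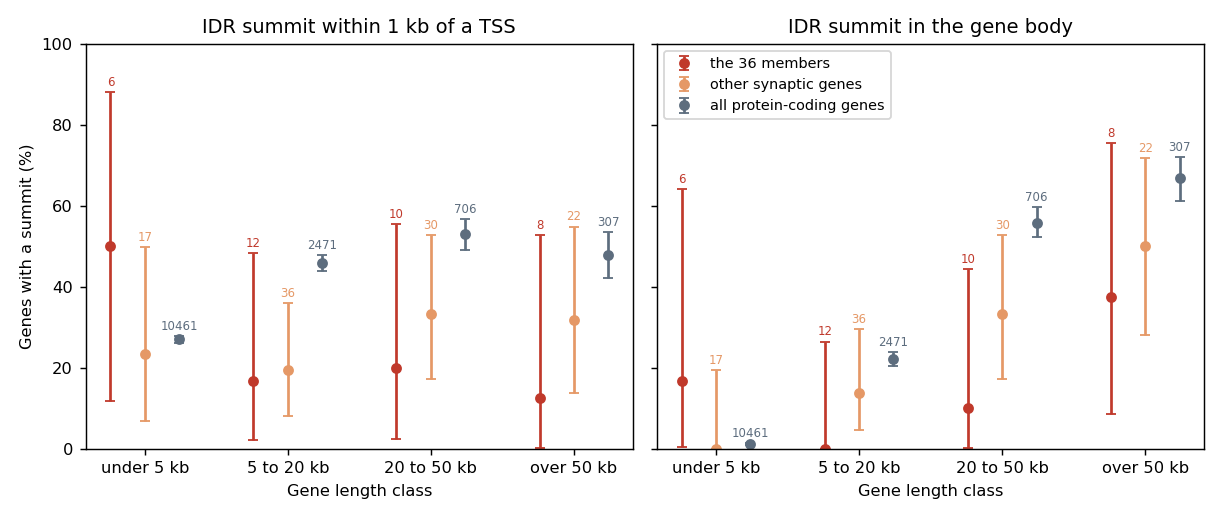
Share of genes with an IDR summit within 1 kb of a TSS (left) and in the gene body (right), in percent by class of gene length, for the 36 members, other synaptic genes and all protein-coding genes; points are shares, bars exact 95% binomial intervals, and the numbers above the bars are genes. In the 3 longer classes the members lie below all genes in both panels, with wide intervals.

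In the gene body, 5 of 36 members had an IDR summit (13.9%, interval 4.67 to 29.5%), against 9.1% of all genes. By length class the order turned, except among the shortest genes. The counts were 1 of 6 under 5 kb, 0 of 12 at 5 to 20 kb, 1 of 10 at 20 to 50 kb and 3 of 8 over 50 kb. The shares over all genes were 1.18%, 22.1%, 55.9% and 66.8%. The upper ends of the members' intervals in the 3 longer classes were 26.5, 44.5 and 75.5%. Of these classes, only at 20 to 50 kb did the share of all genes lie outside the interval. Counted per length of gene body, the members held 9 IDR summits in 1257012 bp, or 0.716 per 100 kb (interval 0.327 to 1.36, from the count of summits). That interval treats summits as independent and does not cover the spread between genes, since 4 of the 9 lay in Sh and 2 in CadN. All protein-coding gene bodies held 4.08 per 100 kb and those of genes over 50 kb 3.61. The bodies of other synaptic genes held 2.38 per 100 kb, and 26 of those 105 genes had a body summit (24.8%). With support required in the remaining replicates, the members' density was 0.318 without replicate 1 or 2 and 0.398 without replicate 3, where all genes had 2.99, 2.96 and 3.05. Without Snap25, which alone spans 225 kb, the density was 0.871; this alternative was added after the data had been seen. In the pooled list 12 members had a body summit (16.1% of all genes), in the same classes 1 of 6, 3 of 12, 3 of 10 and 5 of 8, against 4.23%, 41.7%, 74.2% and 78.5%. The members held 4.85 pooled summits per 100 kb, against 18.3 for all genes. Summits inside 2 overlapping genes count for each.

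At either place, 12 of 36 members had an IDR summit (33.3%), against 35.2% of all genes. By class these were 3 of 6, 2 of 12, 3 of 10 and 4 of 8, where all genes had 27.5%, 53%, 70.3% and 73.6%. Without regard to length the share of members was thus close to the background, and within the 3 longer classes it was below that of all genes. The upper ends of the intervals in those classes were 48.4, 65.2 and 84.3%.

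Surroundings varied widely among the genes with no IDR summit at a start or in the body. In the gene and 100 kb on either side, nSyb had 21 IDR summits, brp 25 and Syt1 35, where the median over all protein-coding genes was 16 (52 in the pooled list). The nearest IDR summit to nSyb was 1816 bp upstream, with a signal of 1166.5, and is 143 bp from the TSS of Bgb. Snap25 and Nlg1, on the other hand, had 0 IDR summits and 1 pooled summit in such a span, and unc-13, on the small chromosome 4, had 2 and 6. The nearest IDR summit to Snap25 was 1163.9 kb away. How well reads could be mapped in these regions was not tested.

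Of the 28 genes with no IDR summit at a start, 3 had one within 2000 bp. These were Shal (1618 bp upstream, signal 418.2), nSyb and para (1912 bp upstream, 309.7), and the summit near Shal is 67 bp from the TSS of CG9330. The farthest counted inside the limit were Syx1A (696 bp) and Syn (498 bp). The median distance from the 28 genes to the nearest IDR summit was 11.1 kb, and 14 of them were farther from one than 10 kb. These distances were not taken over all genes, so whether they are unusual cannot be said. Widening the limit from 1 kb to 2000 bp raised the members called from 8 to 11. Over all protein-coding genes it raised the number called from 4475 to 5317.

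All 8 start-site summits lay upstream of the nearest TSS of their gene, at 54 to 696 bp with a median of 374 bp. Over all 4475 genes bound at a start the strongest summit was upstream in 81.1%, and among other synaptic genes in 22 of 28. The members' signals, 298.5 to 1622.9 with a median of 468, were set against a median of 713.1 for the best summit over all 4475 genes bound at a start, and 1 of the 8, Nrx-1, was above it. Of the 17 IDR summits at starts or in bodies, 8 (47.1%) lay in a peak among the 8549 strongest of all 3 replicates, against 67.7% of all IDR peaks. Those 8 were at Nrx-1, ple, Syx1A and slo at starts and at ChAT, Sh, CadN and Fas2 in bodies. In the full replicate lists, 13 of the 17 (76.5%) had a summit within 100 bp in all 3, against 87.4% of all IDR summits.

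**Figure D4:**
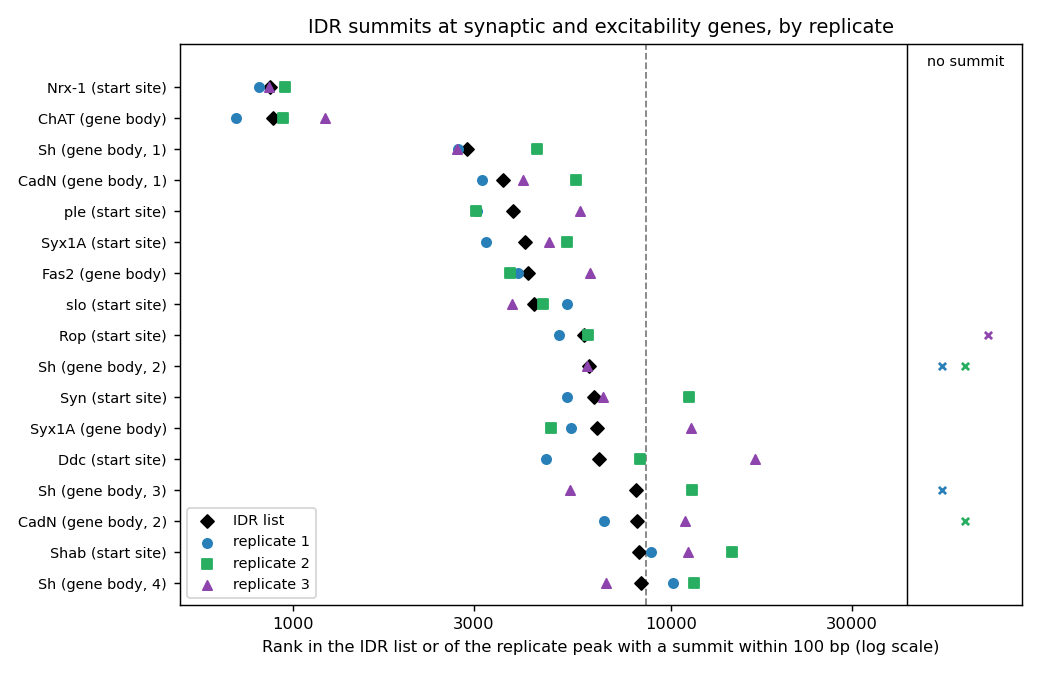
Rank of each of the 17 IDR summits at the 36 genes, in the IDR list (diamonds) and in the 3 replicate lists (the closest replicate summit, up to 100 bp away; log axis); crosses mark replicates with no such summit and the dashed line is rank 8549. Nrx-1 and ChAT lie near rank 1000 in every list, and the lower summits spread across the line, with Ddc from 4661 to 16672.

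The number of genes called at a start fell when support in single replicates was required, which the count of 8 does not ask for. With support of all 3 replicates it fell from 8 to 4 members, and over all genes by a smaller part, from 4475 to 3446. Those 4 members were Nrx-1, ple, Syx1A and slo (24.7% of all genes). Counting only IDR peaks with support among the strongest of both remaining replicates gave the same 4 genes without replicate 1, 5 without replicate 2 (those 4 and Syn) and 6 without replicate 3 (those 4, Rop and Ddc). The shares of all genes under these settings were 26.9%, 26% and 26.9%. Among the 4274 strongest IDR peaks 3 were called, Nrx-1, Syx1A and ple (20.7%). For the gene body, 4 members were called without replicate 1, 4 without replicate 2 and 5 without replicate 3, against 7.67%, 7.5% and 7.72% of all genes, and 4 with support of all 3 (7.15%) or among the 4274 strongest (5.89%).

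The distance allowed also moved the counts. Within 500 bp of a TSS 7 members had an IDR summit (28.1% of all genes), the one lost being Syx1A, and 10 had a summit in all 3 replicate lists (36.6%). Within 2000 bp 11 had an IDR summit (38.1%), Shal, nSyb and para being added, and 21 had one in all 3 replicate lists (48.3%). With any part of the peak counted in place of the summit the same 8 genes were called (33.2%), and with only the gene of the nearest TSS 7 (24.1%).

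A further 105 genes of the same processes were counted in the same way. At a start 28 of them had an IDR summit (26.7%, interval 18.5 to 36.2%), against the same background of 32.1%. The groups differed in their counts. Among other adhesion genes 10 of 16 were called, led by Nlg2, another neuroligin gene (signal 1237.2), Lar, a receptor phosphatase gene (685), Ten-m, a teneurin gene (654.7) and fra, the Netrin receptor gene (610.9). Among other channel genes 8 of 19 were called. Their highest were NaCP60E (1862.3), whose summit is 89 bp from the TSS of the ribosomal protein gene RpL41, pyx, a TRP channel gene (1753.8, nearer to CG33229), sei, a potassium channel gene (1319.1) and Ca-alpha1T, a T-type calcium channel gene (916.9).

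Among other genes of the vesicle cycle 7 of 26 were called. The share over all protein-coding genes, for this group and those that follow, was 32.1%. Highest were dlg1, a synaptic scaffold gene (1170.5), EndoA, the endophilin gene (1038.3), comt, which encodes NSF (985.3), and Sytbeta (724.7). Of the other transmitter genes 2 of 12 were called, Vmat, the vesicular monoamine transporter gene (705), and Pu, which acts in making a cofactor of tyrosine hydroxylase (364.7). Of 32 other transmitter receptor genes, for acetylcholine, GABA, glutamate and monoamines, 1 was called: nAChRbeta3 (314.2), whose summit is 8 bp from the TSS of Spp. No list, pooled or replicate, had a summit at the start of 22 of these 32 receptor genes, against 40.2% of all protein-coding genes. The median length of the adhesion genes was 57463 bp and that of the receptor genes 20904 bp, and the part of length in these counts was not tested.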

How the data were processed

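Peaks were called for each replicate and for the pooled alignments, against the same control alignment, per the deposited provenance records; which aligner and caller were used is not given in the sources used here. The deposited lists give the authors' signal per peak and a −log10 q-value, which was not used. Fragments were 200 to 800 bp, per the labels. Summits are the peak start plus the deposited offset, written from 1; 5 IDR summits beyond their peak's end were kept. Peaks on chromosome 4 and the large arms were used, leaving out 5 peaks of replicate 1. Genes and 19607 TSSs came from Ensembl release 115; peaks and genes ended within the Release 6 chromosome lengths. Replicate values are those of the nearest summit within 100 bp. Support means a summit inside one of the 8549 strongest peaks of a replicate. Assignment was tested on simulated summits. Read totals are not given, and depth is unknown. Python 3.11.15, pandas 2.3.3 and scipy 1.17.1 were used.

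Members and lists were chosen with earlier results of these data known. Of 107 symbols in the list of other synaptic genes, 3 were matched by synonym, and Caps and Trh were left unmatched. Every member was named, and the 4 highest of each further group. Each replicate came from its own biosample, per the labels. There is 1 group, so no difference was tested. Alternatives were other distances, shorter lists, the nearest gene only, peak intervals, whole genes and leaving out each replicate. For the IDR list, leaving out a replicate meant requiring support in the remaining ones, while the peaks themselves still came from all 3 replicates. The GATAA motif and the density without Snap25 were chosen after seeing the data.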

Additional observations from a re-analysis of the deposited data

How the results depend on the processing

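Every value here is a count or a density of 1 group with no test behind it, and the depth of the libraries is unknown. With the 4274 strongest IDR peaks, 3 members were called at a start (20.7% of all genes), the body density was 0.318 per 100 kb (1.89 for all genes) and 15 other synaptic genes were called. With support of all 3 replicates, 4 members were called and the density was 0.318 (2.68 for all genes). Requiring support in the remaining replicates when 1 was left out gave 4 to 6 members at a start and densities of 0.318 to 0.398. The IDR peaks so filtered still came from all 3 replicates. These alternatives hold fewer peaks by construction. In the pooled list 12 members had a body summit (16.1% of all genes). Within 2000 bp of a TSS the pooled list called 23 members (53.2% of all genes) and all 3 replicate lists 21 (48.3%). With the replicate lists shortened to 8549 peaks, all 3 called 5 (26.2%). Under the other alternatives, the counts stayed within 1.5 times the main count. The densities there were 0.716 to 0.871 per 100 kb, beside the main value of 0.716. No paired analysis was possible because there is only 1 group.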
